A study of Mus musculus with 2 samples.

Results

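The interferon-stimulated genes are the genes that cells switch on when they sense a virus or receive an interferon signal. In splenic B cells of unstressed mice, 36 of 39 of them had at least 1 DNase I hypersensitive site (DHS) in the promoter region, against 57% of all protein-coding genes. A DHS lying over a transcription start site (TSS) was called at 35 of 39, against 46.6% of all protein-coding genes. Most carried the promoter type that is less often accessible in these cells, since 37 of the 39 had a CpG-poor promoter. Among the 39 genes, 27 held the core of the interferon-stimulated response element inside a promoter DHS, against 12.4% of all protein-coding genes. The 3 genes with no promoter DHS were Oas1a, Oas3 and Ifi44.

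The 39 genes were taken as a named list of interferon-stimulated genes, among 22350 protein-coding genes of the GENCODE M1 annotation, and they lay on 13 chromosomes. The promoter window of a gene reached from 5 kb before to 2 kb after each of its annotated TSSs, and DHS touching such a window gave 79 distinct DHS of the 47474 on chromosomes 1 to 19 and X. The DHS were profiled in B cells isolated from the spleen at 8 weeks of age, from strain C57/Bl6 with genotype Trp53+/+ under the mock treatment, by magnetic selection for the surface marker B220. The number of animals is not given. DNase I cuts open chromatin more readily than DNA wrapped in nucleosomes, and regions rich in cut fragments are called DHS. There was 1 DNaseI library, 1 input library, not analysed here, and no replicate, so all comparisons describe this library and no p-value is given. Intervals on shares are exact binomial at the 95% level and cover counting error only.

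Type I interferons signal through the receptor Ifnar1/Ifnar2 and the kinases Jak1 and Tyk2 to transcription factors that bind the interferon-stimulated response element (ISRE). Interferon-gamma acts through Ifngr1/Ifngr2, and its target genes often hold a gamma-activated site (GAS). Other members of the interferon regulatory factor family also bind ISRE-like sequence, and with Ets factors such as PU.1 some of them bind Ets-IRF composite elements in B cells. The response includes sensors of foreign nucleic acid, enzymes that degrade or edit RNA, proteins that block viral entry and replication, the ubiquitin-like protein Isg15 with its partners, and GTPases that act on vacuoles holding pathogens.

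Exact words were searched on both strands. The ISRE core was GAAA, then any 2 bases, then GAAA again, and the longer ISRE word was this core followed by CT. Of the 39 genes, 15 had the longer word between 250 bp before and 50 bp after a TSS (38.5%, 23.4 to 55.4), against 0.644% of all protein-coding genes and 0.83% of those with a CpG-poor promoter. All 17 matches are shown, so that the words inside a DHS can be set beside those outside. The 15 words of the first 13 genes lay inside a DHS, and the last 2, of Ifit3 and Oas1a, lay outside. Each line gives 32 bases of mm9 on the strand of the word, with the ISRE word in capitals. Gbp3 and Ifit1 had 2 words each, and those of Gbp3 overlap.
Parp9, chr16:35939046-35939077, minus strand: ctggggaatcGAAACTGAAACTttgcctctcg
Irgm1, chr11:48684925-48684956, minus strand: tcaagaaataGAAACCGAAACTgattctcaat
Zbp1, chr2:173044456-173044487, plus strand: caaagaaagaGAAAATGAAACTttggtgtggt
Ddx58, chr4:40186837-40186868, plus strand: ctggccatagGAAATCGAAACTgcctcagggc
Bst2, chr8:74061480-74061511, minus strand: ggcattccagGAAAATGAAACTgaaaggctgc
Usp18, chr6:121195829-121195860, minus strand: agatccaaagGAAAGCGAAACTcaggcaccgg
Gbp3, chr3:142222951-142222982, minus strand: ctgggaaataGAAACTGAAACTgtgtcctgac
Gbp3, chr3:142222957-142222988, minus strand: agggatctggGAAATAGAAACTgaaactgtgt
Isg20, chr7:86058802-86058833, plus strand: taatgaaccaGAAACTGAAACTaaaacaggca
Gbp2, chr3:142283556-142283587, minus strand: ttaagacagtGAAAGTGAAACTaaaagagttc
Oas2, chr5:121199914-121199945, plus strand: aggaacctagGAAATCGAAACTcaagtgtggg
Ifit1, chr19:34715263-34715294, minus strand: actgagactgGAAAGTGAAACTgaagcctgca
Ifit1, chr19:34715282-34715313, minus strand: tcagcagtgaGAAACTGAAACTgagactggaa
Oasl2, chr5:115347466-115347497, minus strand: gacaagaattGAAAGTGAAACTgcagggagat
Ifitm3, chr7:148196620-148196651, minus strand: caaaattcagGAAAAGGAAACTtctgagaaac
Ifit3, chr19:34657851-34657882, minus strand: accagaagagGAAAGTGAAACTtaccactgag
Oas1a, chr5:121357533-121357564, minus strand: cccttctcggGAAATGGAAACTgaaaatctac

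The surroundings of 3 of these words are shown as whole promoters, from 250 bases before to 50 bases from the TSS on, because they were the highest-scoring DHS with the longer word. All 300 bases of each lay inside the DHS. They are given on the strand of the gene in mm9, and capitals mark the longer ISRE word, which begins with AGTTTC where it lies on the opposite strand.
Parp9, chr16:35938847-35939146, plus strand: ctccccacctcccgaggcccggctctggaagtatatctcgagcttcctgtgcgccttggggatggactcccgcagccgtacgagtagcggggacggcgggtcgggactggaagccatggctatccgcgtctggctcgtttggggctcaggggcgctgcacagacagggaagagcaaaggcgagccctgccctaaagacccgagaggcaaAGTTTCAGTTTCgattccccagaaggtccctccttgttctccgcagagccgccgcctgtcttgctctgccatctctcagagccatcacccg
Irgm1, chr11:48684873-48685172, minus strand: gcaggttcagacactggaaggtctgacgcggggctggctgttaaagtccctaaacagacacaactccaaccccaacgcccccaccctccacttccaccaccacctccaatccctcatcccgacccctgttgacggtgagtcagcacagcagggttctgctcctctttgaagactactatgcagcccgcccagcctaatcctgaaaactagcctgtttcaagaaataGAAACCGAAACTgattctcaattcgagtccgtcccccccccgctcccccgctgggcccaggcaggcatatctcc
Zbp1, chr2:173044375-173044674, minus strand: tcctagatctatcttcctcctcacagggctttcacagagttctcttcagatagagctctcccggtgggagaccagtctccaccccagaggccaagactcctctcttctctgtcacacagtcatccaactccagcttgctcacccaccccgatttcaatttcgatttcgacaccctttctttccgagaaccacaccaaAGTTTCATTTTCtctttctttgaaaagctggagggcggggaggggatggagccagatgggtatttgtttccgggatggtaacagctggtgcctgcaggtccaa
In Parp9 the word was centred 35.5 bp upstream of the start site, in Irgm1 18.5 bp upstream and in Zbp1 47.5 bp upstream. Zbp1 had 4 ISRE cores in this stretch, the most of the 39 genes, and only the core that forms the longer word is wholly in capitals.

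To ask whether these promoters were accessible in unstressed B cells, they were set against protein-coding genes of like CpG class. CpG-rich promoters were those with 55% GC or more, and with CpG at 0.6 or more of its expected frequency, over 1000 bp centred on the outermost TSS. Only Trim25 and Adar were CpG-rich, and Samhd1 fell just short with 54.8% GC and a CpG ratio of 0.697. At least 1 promoter DHS was found at 92.3% of the 39 genes (79.1 to 98.4), where the share over all protein-coding genes was 57%. That share was 85.5% for CpG-rich genes and 39.2% for CpG-poor genes, and weighting both by the class of the 39 genes gave 41.5%. Among the 37 CpG-poor members 34 had a promoter DHS (91.9%, 78.1 to 98.3), and the lower end of this interval lay above the share of CpG-poor genes. A DHS over a TSS was called at 89.7% of the members (75.8 to 97.1), against 46.6% of all, 74% of CpG-rich and 29.4% of CpG-poor genes. For the CpG-poor members this share was 89.2% (74.6 to 97.0). The members had a median of 3 annotated start sites and CpG-poor genes 1, which gives more windows to a member. With the outermost TSS alone, 91.9% of CpG-poor members had a promoter DHS, against 35.9% of CpG-poor genes.

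**Figure D1:**
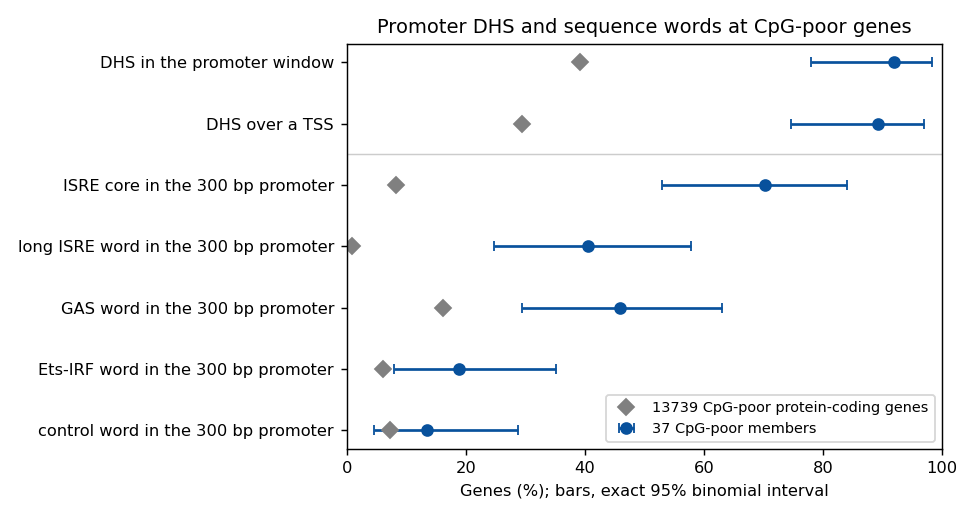
Share of the 37 CpG-poor interferon-stimulated genes (circles, with exact 95% binomial intervals) and of 13739 CpG-poor protein-coding genes (diamonds) with a DHS in the promoter or over a TSS, and with each sequence word within 250 bp before to 50 bp after a TSS. The members lie at 91.9% and 89.2% for the 2 DHS measures and the genes at 39.2% and 29.4%, while the interval for the control word spans the share of the genes.

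The score is the value that the authors' peak caller gave each DHS. Its scale is not stated, and it serves here only to rank DHS within the list, in which the median was 32.65 and the highest 619.44. The highest promoter DHS of the members had a median score of 72.92 with genes lacking one at 0 (95% interval 46.41 to 96.29), against 33.51 over all protein-coding genes. Among genes that had a promoter DHS, the order was the other way. The median of the members was 79.7 and that of all protein-coding genes 101, and for CpG-poor genes the values were 75.1 and 81.4. By rank within the CpG class, 22 members were at or above the 75th percentile and 8 at or above the 90th, with genes lacking a DHS at 0, which is also the median of CpG-poor genes. These 8 were Adar, Cmpk2, Sp100, Parp9, Dtx3l, Ifit2, Irgm1 and Samhd1.

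Of the members, 11 had 1 promoter DHS, 16 had 2 and 9 had 3 or more, with the most, 6, at Dhx58. The 39 distinct DHS lying over a start site of a member had a median score of 77.33 and a median width of 1286 bp. The other 40, which covered no start site of a member, had a median score of 25.1 and a median width of 502.5 bp. Over all protein-coding genes, the 10484 DHS over a start site had a median score of 94.42 and a median width of 1371 bp. The top DHS covered a start site of its own gene for 28 members and did not for Ifit1, Ifit3, Isg15, Mx1, Oas2, Gbp2, Ifi47 and Ifitm3.

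**Figure D2:**
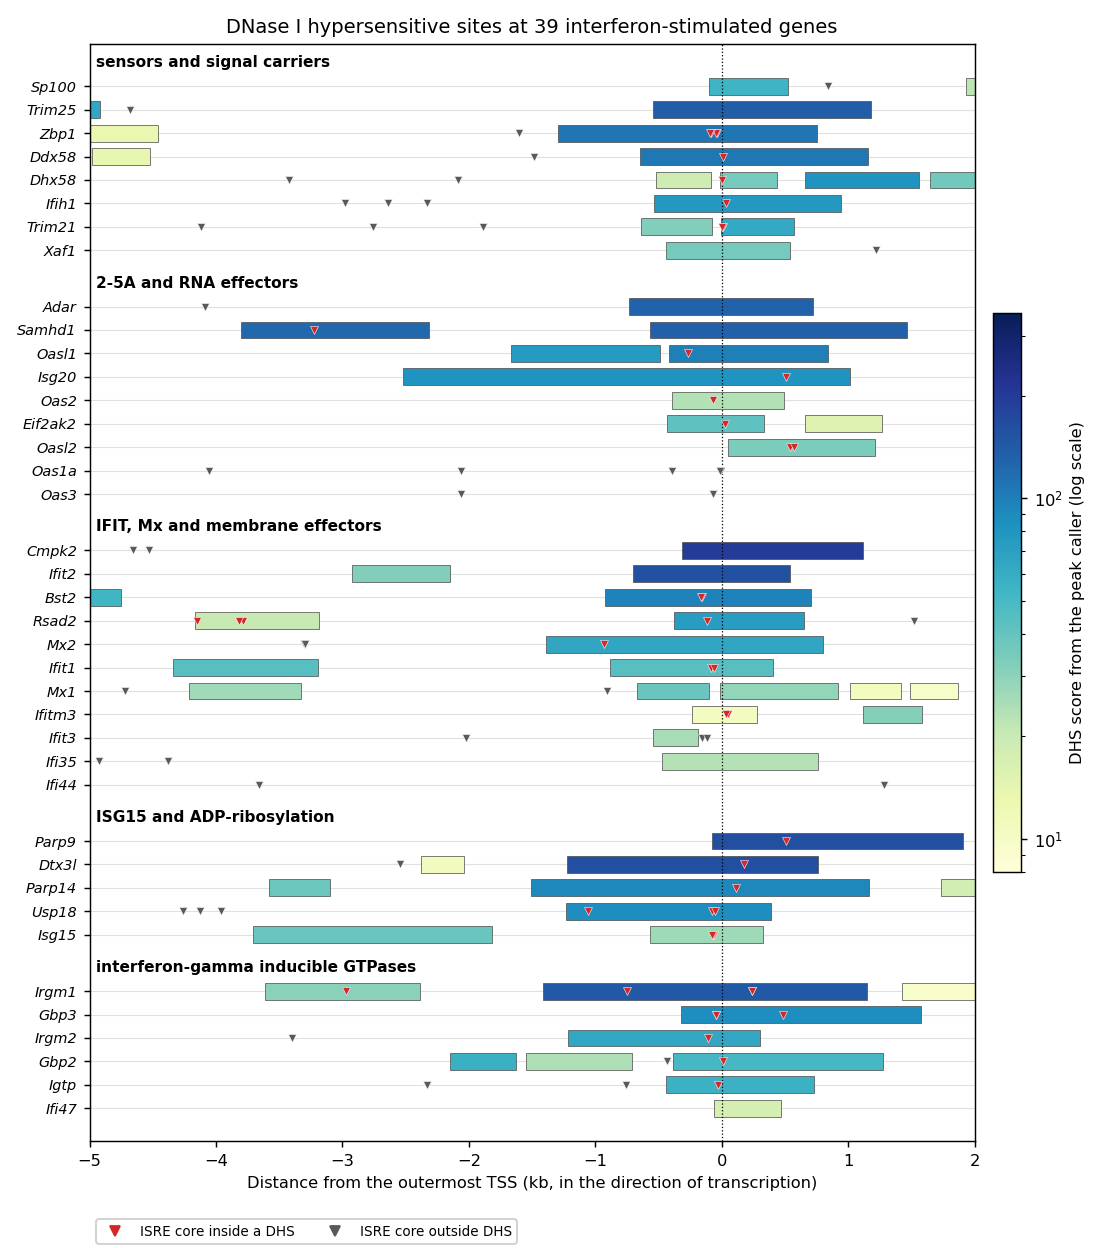
DHS of the 39 genes from 5 kb upstream to 2 kb downstream of the outermost TSS, in the direction of transcription and sorted by role and highest score. Boxes are DHS coloured by the caller's score on a log scale, and triangles are ISRE cores inside (red) or outside (grey) DHS. DHS at inner start sites beyond this range, such as the highest ones of Adar and Sp100, are not drawn. Oas1a, Oas3 and Ifi44 have no box.

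The counts by role are to be read beside the 57% of all and 39.2% of CpG-poor genes with a promoter DHS, and the 46.6% and 29.4% with a DHS over a TSS. The sensors and signal carriers had a promoter DHS and a DHS over a TSS at 8 of 8 genes, with a median top score of 94.1. The RNA helicases that detect viral RNA were Ddx58 (RIG-I) with a top score of 106.03, Dhx58 (LGP2) with 82.14 and Ifih1 (MDA5) with 77.33. An ISRE core was centred 6.5 bp from a TSS in Ddx58, 0.5 bp in Dhx58 and 7.5 bp in Ifih1. Zbp1, a sensor of left-handed nucleic acid, had 109.57, and Trim25, the ubiquitin ligase that acts on RIG-I, 134.49. Trim21, which recognises antibody-coated virus, had 63.03. Sp100, a component of nuclear bodies, had the highest score of the group at 182.83, but this DHS lay at an inner start site, beginning 52565 bp downstream of the outermost one, where the score was 53.92. Repeated sequence was common around the outermost TSS of Sp100, where 68.0% of the 31-base words occur more than once in the genome. Xaf1, an interferon-induced partner of an apoptosis inhibitor, was lowest with 35.89.

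Among the 2-5A and RNA effectors, 7 of 9 genes had a promoter DHS and the median top score was 50.53. Adar, which edits adenosine to inosine in double-stranded RNA, had the highest score of all 39 genes, 336.59. That DHS lay over an inner start site, beginning 14877 bp downstream of the outermost one, which itself was covered by a DHS of score 130.31. Samhd1, which breaks down deoxynucleotides, had 5 promoter DHS with a top score of 132.18. The exonuclease Isg20 had the widest DHS of the members, 3540 bp, with a score of 82.33. The RNA-activated kinase Eif2ak2 (PKR) had 42.32.
The oligoadenylate synthetases, which make the 2-5A messenger that activates RNase L, and the synthetase-like Oasl1, which does not, were split. Oasl1 had 98.54, Oas2 50.53 and Oasl2 33.97, while Oas1a and Oas3 had no promoter DHS. The top DHS of Oas2 was centred 3878.5 bp from its nearest TSS, and the DHS over its TSS, which holds its longer ISRE word, had 23.65. The nearest DHS of Oas3 had its edge 2048 bp downstream of a TSS, just outside the window, and a score of 9.01. For Oas1a the nearest DHS edge was 69788 bp away. Both genes had the ISRE core beside a TSS, 1 in Oas3 and 2 in Oas1a. Around the TSS of Oas1a 34.8% of the 31-base words were repeated in the genome, and 9.18% around that of Oas3. Whether reads from such copies were dropped before calling is not stated, and the part of repeats in the missing DHS was not tested.

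The IFIT, Mx and membrane effectors had a promoter DHS at 10 of 11 genes and a DHS over a TSS at 9, with a median top score of 44.82, the lowest of the 5 groups. Cmpk2, a mitochondrial nucleotide kinase, had 198.8, and its neighbour Rsad2 (viperin), which makes a chain-terminating nucleotide, 72.92. The IFIT proteins bind viral RNA ends. Ifit2 had 156.12, Ifit1 44.82 and Ifit3 25.32. The single DHS of Ifit3 was 360 bp wide and ended 186 bp before its TSS, so that its longer ISRE word, centred 154.5 bp upstream, fell between the DHS and the start site. Repeated words made up 71.9% of the sequence around this TSS, the highest value among the members. The dynamin-like GTPases Mx1 and Mx2 had 38.97 and 65.14. Bst2 (tetherin), which holds budding virus at the membrane, had 96.29. Ifitm3, which blocks fusion of virus with endosomes, had 31.81 at a DHS centred 1352.5 bp downstream of its TSS, at the far end of this short gene, and 10.76 over its TSS. Ifi35 had the lowest top score of the members with a promoter DHS, 23.25. Ifi44 had none, no ISRE core beside a TSS, and its nearest DHS edge was 360900 bp from a TSS. Repeated words made up 6.70% around its TSS.

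In the ISG15 and ADP-ribosylation group 5 of 5 genes had a DHS over a TSS, with a median top score of 92.55. Isg15, the ubiquitin-like modifier, had 38.92 at an upstream DHS that covered the TSS of the neighbouring gene AW011738, not its own. Over its own TSS the score was 27.15. Usp18, the protease that removes Isg15 and restrains the receptor, had 86.73. Parp14, an ADP-ribosyltransferase, had 92.55. Parp9 and the ubiquitin ligase Dtx3l, which work as a complex, are transcribed away from each other and shared their promoter DHS. The larger, chr16:35938479-35940463, was 1985 bp wide with a score of 161.51 and covered start sites of both genes, and the smaller had a score of 10.97. This pair is therefore 1 observation, and counting it once gave a promoter DHS at 92.1% of members.

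All 6 interferon-gamma inducible GTPases had a DHS over a TSS, with a median top score of 61.2. Irgm1 had the highest, 143.74, followed by Gbp3 with 86.5, Irgm2 with 64.77, Gbp2 with 57.64, Igtp (Irgm3) with 56.54 and Ifi47 (Irg47) with 46.41. The top DHS of Ifi47 covered the TSS of the gene Gm12188, and the DHS over its own outermost TSS had 17.48. Igtp and Irgm2 are neighbours with repeated words at 38.5% around either TSS. The ranges of all 5 groups overlapped.

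**Figure D3:**
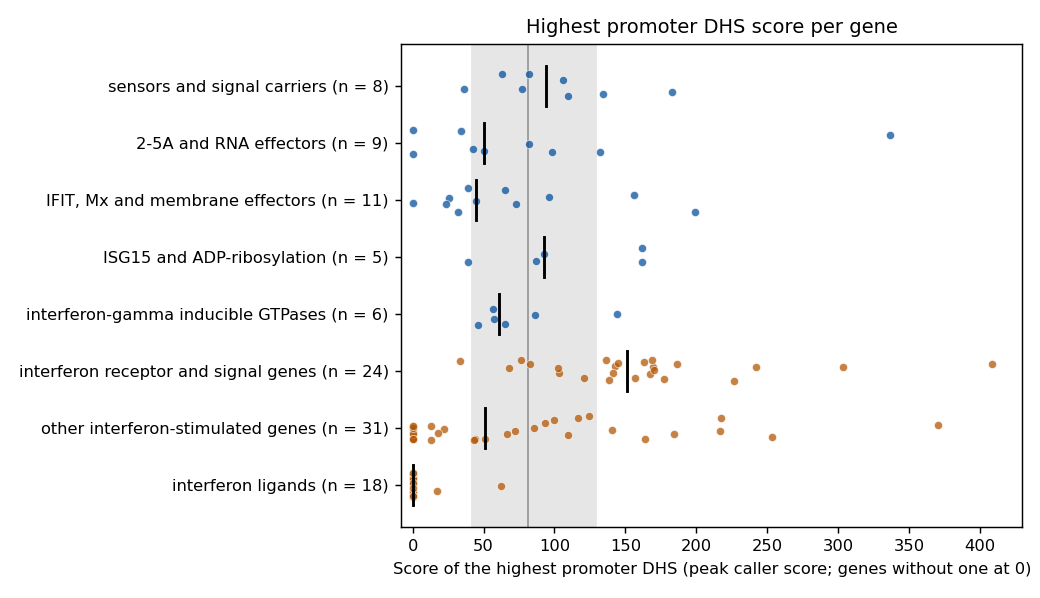
Score of the highest promoter DHS per gene, with genes lacking one at 0, for the 5 role groups (blue) and for 3 lists of the same pathway (brown). Points are genes (vertical scatter for display only), black bars are medians, and the grey line and band are the median and quartiles of CpG-poor protein-coding genes that have a promoter DHS. The receptor and signal genes have a median of 150.8 and the interferon ligands lie mostly at 0.

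Several of the genes lie in tandem clusters, in which neighbours differed. Across the Ifit locus, from 10 kb before to 10 kb after its members, there were 12 DHS, 5 of them in the promoters of Ifit1, Ifit2 and Ifit3. The DHS over the TSS of Ifit1, with a score of 44.51, also covered the start of 2010002M12Rik, which is transcribed the other way. In the Oas locus there were 10 DHS. All but one of them lay in the stretch that holds Oas2, Oas3, Oas1e, Oas1c and Oas1b, and the remaining DHS, which had the highest score of the locus, 90.34, lay between Oas1b and Oas1f. No promoter DHS was called at Oas1f, Oas1h, Oas1g, Oas1a or Oas1d. Repeated words made up 6.80% to 34.8% around the start sites of these 5 genes, and 49.9% at Oas1e, which had a promoter DHS of score 29.49. That DHS was centred 1955 bp from the TSS, outside the sequence in which repeats were counted.

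**Figure D4:**
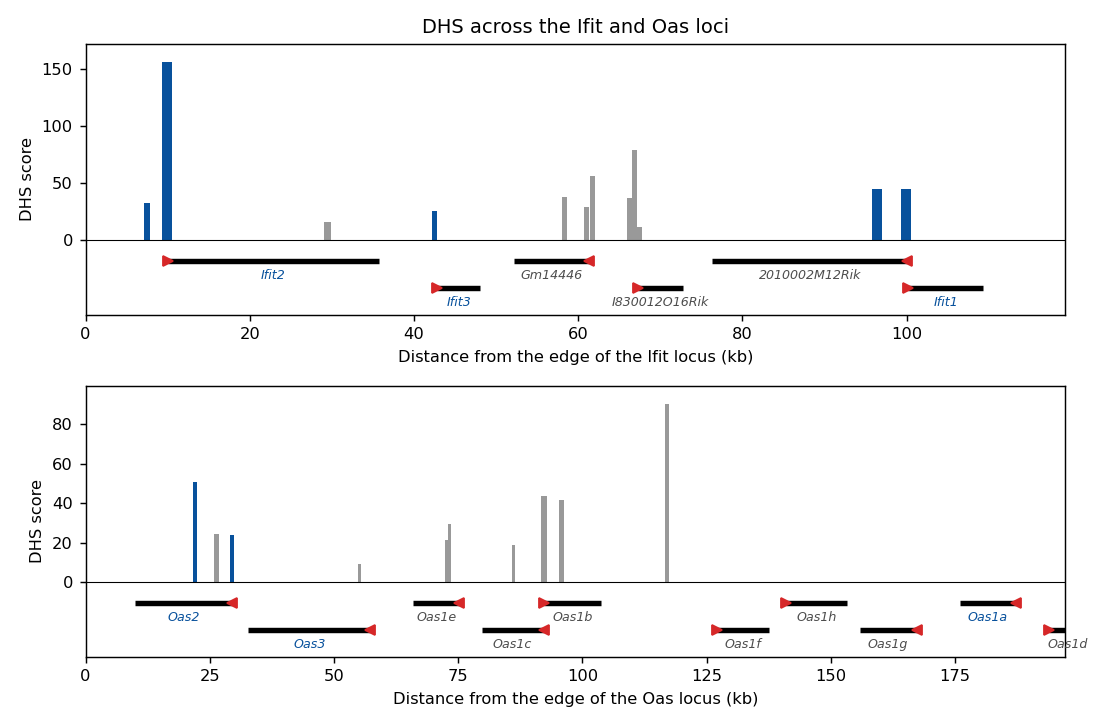
DHS across the Ifit and Oas loci, with distance in kb from the left edge of each locus. Bars are DHS with the caller's score as height, blue in the promoter window of a member and grey elsewhere, black lines are protein-coding genes (members in blue letters) and red arrowheads their outermost start sites. Ifit2 has the tallest bar of its locus at 156.12, and no bar lies near Oas1h, Oas1g, Oas1a or Oas1d.

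The response elements were then counted inside and outside the DHS. An ISRE core lay inside a promoter DHS at 69.2% of members (52.4 to 83.0), against 12.4% of all protein-coding genes and 9.01% of CpG-poor ones. In the central 300 bp of the peaks alone it was found at 28.2% of members, against 3.56% of all genes. The longer word lay inside one at 43.6% of members (27.8 to 60.4), against 1.1% and 0.983%. Within 250 bp before to 50 bp after a TSS the ISRE core was found at 66.7% (49.8 to 80.9), against 7.95% and 8.2%. For the GAS word TTCNNNGAA this share was 48.7% (32.4 to 65.2) against 15.8% of all and 16.2% of CpG-poor genes. The Ets-IRF word, GGAA and GAAA with any 2 bases between, was at 23.1% (11.1 to 39.3) against 6.06% and 6.07%. A control word with the letters of the ISRE core reversed, AAAG and AAAG with any 2 bases between, was at 12.8% (4.30 to 27.4) against 7.67% and 7.34%, so there the interval of the members held the share of all genes. Inside promoter DHS the control word was at 28.2% of members against 12.7% of all genes, and at 10 of 37 CpG-poor members (interval 13.8 to 44.1%) against 8.75% of CpG-poor genes, where the interval lay above the share of the genes. The members had a median of 2113 bp in promoter DHS and all protein-coding genes 1012 bp, so that more sequence was searched per member inside DHS. The members also had more start sites, with a median of 3 against 2 over all protein-coding genes. With the outermost TSS alone, the ISRE core lay beside it at 51.3% of members, against 3.79% of all protein-coding genes. Since the genes are known for their response to interferon, a high share of ISRE words is part of their definition in the field, and the measurement here is where these words lay relative to the DHS.

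Inside the DHS of the members the ISRE core occurred 0.613 times per kb (exact Poisson 95% interval 0.453 to 0.810), and 0.197 times per kb (0.153 to 0.249) in the rest of their promoter windows. In CpG-poor genes the densities were 0.154 inside and 0.172 outside. Among the member DHS, those over a start site held 0.780 cores per kb and the others 0.223. Whether the difference between inside and outside in the members reflects nearness to a TSS was not tested. The longer word showed 0.238 per kb inside and 0.0314 outside in the members. In CpG-poor genes it was also denser inside, with 0.0142 per kb and 0.00875 outside. GAS words occurred 0.438 times per kb inside (0.305 to 0.609) and 0.277 outside (0.225 to 0.338), intervals that overlap. For the control word the densities were 0.163 and 0.134. Overlapping matches were counted separately, and the ISRE core can overlap the Ets-IRF word in sequence with further purines. The Poisson intervals treat matches as independent, so those of the ISRE words are likely too narrow.

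**Figure D5:**
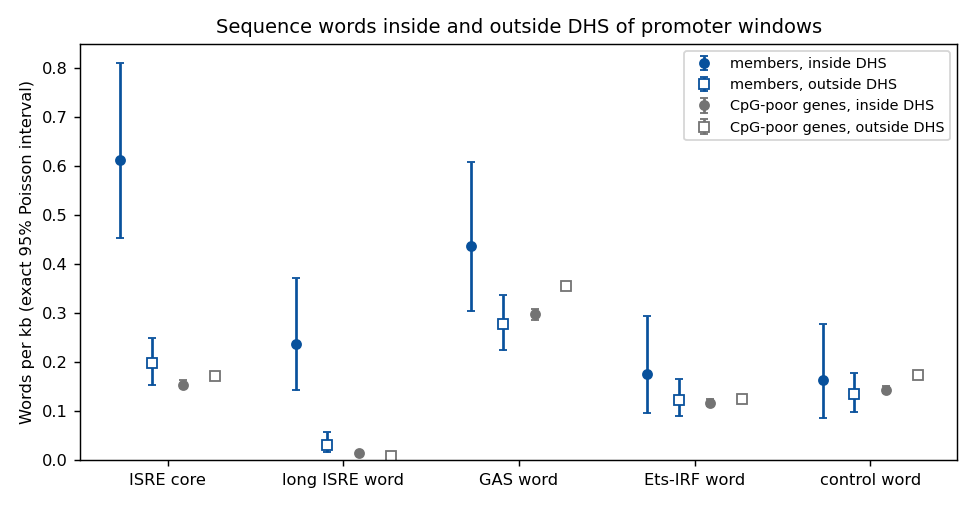
Density of each word per kb inside DHS (filled) and outside DHS (open) of the promoter windows, for the 39 members (blue) and for CpG-poor protein-coding genes (grey), with exact 95% Poisson intervals. For the members the ISRE core stands at 0.613 inside and 0.197 outside, and the control word at 0.163 and 0.134.

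The 44 ISRE cores beside a TSS, in 26 members, had a median position of 62 bp upstream, and 38 of them lay upstream. The stretch searched reached 250 bp before but only 50 bp after a TSS, so most words of any kind there would lie upstream. Of the 44 cores 35 lay inside a DHS and 9 outside. Since 35 of 39 members had a DHS over a TSS, many words so near a TSS would lie in one. The like share for the control word or for other genes was not counted. For 3 members, Ifit3, Oas1a and Oas3, the cores beside a TSS were all outside DHS. At least 2 cores were found in 15 members, with 3 overlapping ones in Isg15. Of the 39 member DHS over a start site of a member 66.7% held the core, against 15.5% of the DHS over a start site of all protein-coding genes. Of the other 40 member DHS 10% held it, against 12.6% of all promoter DHS, a set that includes those over a start site. Since these 40 were narrower, the order per kb was the other way, with 0.223 cores in them and 0.133 in all promoter DHS. The member DHS over a start site held 0.780 per kb. The 26 members with a core beside a TSS had a median top score of 63.9, and the 13 without one 132.18, among them Adar, Cmpk2, Sp100, Dtx3l and Ifit2. Both CpG-rich members are among these 13, and the DHS shared by Parp9 and Dtx3l, which holds a core, counts in both groups. CpG-poor genes other than the members that had the longer word beside a TSS numbered 99, of which 54 (54.5%) had a promoter DHS, against 39.0% of CpG-poor genes without the word.

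The genes that carry the interferon signal were accessible as well. All 24 receptor and signal genes listed had a promoter DHS, against 57% of all protein-coding genes, and against 66.2% when weighted by class, since 14 of them were CpG-rich. Their median top score was 150.8, from 33.04 at Ikbke, a kinase upstream of interferon induction, to 408.63 at the transcription factor Irf1. The transcription factors Stat2 and Irf9 had top scores of 177.35 and 121.04. The receptor chains Ifnar1 and Ifnar2 had 169.64 and 103.01, and Ifngr1 and Ifngr2 142.83 and 141.54. A DHS over a TSS was lacking at Jak2, Tyk2 and Irf2. In contrast, the interferons themselves were mostly without a DHS. Of 18 ligand genes 2 had one in the promoter window, Ifnab with 62.46 and Ifng with 17.48, and 0 had one over a TSS, although 10 of the 18 had an ISRE core beside a TSS. Repeated words made up 9.28% at Ifna4 to 58.2% at Ifna5 around the start sites of the Ifna genes, and 0% at Ifnb1. They made up 93.1% at Ifnz, 66.0% at Il28a and 65.9% at Il28b, which had no promoter DHS. Of 31 further interferon-stimulated genes that are not among the 39, 22 had a promoter DHS (71.0%, 52.0 to 85.8), an interval that holds the 57% of all protein-coding genes. Most of them, 27, were CpG-poor, and of these 19 had one (70.4%, 49.8 to 86.2), against 39.2% of CpG-poor genes. Their top scores ran from 12.82 at Lgals3bp to 370.33 at Trex1, an exonuclease that clears cytosolic DNA. The interval for these genes overlapped that of the 39 members.

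The label of the cells was checked with marker genes. All 12 B cell markers had a promoter DHS, with scores from 71.66 to 269.18. B220 is also found on plasmacytoid dendritic cells, which make much interferon. Of 7 markers of those cells 4 had a promoter DHS, with scores from 15.72 to 49.27, and Siglech, Klk1 and Cd300c had none. Promoter DHS were called at 2 of 10 T cell markers (Cd5 with 97.67 and Lat with 24.5). They were called at 4 of 8 myeloid markers, with scores from 18.16 to 51.05, and at 2 of 6 erythroid markers, among them Klf1 with 177.81. The scores of Cd5 and Klf1 lie within the range of the B cell markers. The share over all protein-coding genes was 57% and over CpG-poor ones 39.2%, so these counts do not show that other cell types were absent. In a bulk library a DHS present in few cells cannot be told apart from a weak DHS in many, and the part of other cells in the DHS of the members was not tested.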

How the data were processed

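DNase I digested nuclei of splenic B cells were sequenced by the authors, who chose the digest among several enzyme concentrations. The deposited list holds for each peak of the MACS caller a position and a score, whose scale the authors do not state. The study states a caller version, a threshold and a read filter for its ChIP-seq, and whether they apply to the DNaseI library, and whether the input library was used, is not stated. The submitters' processing notes name BWA 0.6.2, SAMtools and mm9. The list has no read counts, so the depth is unknown, and the absence of a DHS means that none was called.

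Peaks on chromosomes 1 to 19 and X were assigned to GENCODE M1 protein-coding genes of the mm9 assembly by an overlap of at least 1 bp with the window of any TSS, with Python 3.11.15, numpy 2.4.6, scipy 1.17.1 and numba 0.67.0. Words were matched exactly. For repeats, the share of 31-base words within 500 bp of the outermost TSS with a further copy on these chromosomes was taken. The steps were tested on simulated data. Counts and exact intervals were computed and no test across genes was made. The members and lists were chosen with earlier results of these data known. Symbols without a match in the annotation were left out (2 ligands, 4 other interferon-stimulated genes and 1 dendritic cell marker). All members are named, with full values for those without a promoter DHS, the 5 highest and 5 lowest scores, shared DHS and the longer ISRE word. The alternatives were other windows, start sites, score thresholds, overlap rules, CpG classes and words, and, added after the data were seen, genes with at most 10% repeated words.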

Additional observations from a re-analysis of the deposited data

How the results depend on the processing

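Of 51 values under alternative settings, 47 moved by less than the counting interval of the value reported and 4 moved by more. With peaks at or above the median score only, the share of members with a DHS over a TSS was 74.4%, against 42.3% of all protein-coding genes. The share of members with the ISRE core in a promoter DHS was 43.6% for the longer word and 28.2% for the central 300 bp of each peak, against 1.1% and 3.56% of all genes. Beside a TSS the share was 38.5% for the longer word. Among genes with at most 10% repeated words, an alternative chosen after seeing the data, 24 of 26 CpG-poor members had a promoter DHS (92.3%), against 47.8% of CpG-poor genes. No paired analysis was possible because there is 1 DNaseI library. With that single library the spread between animals or digests is not known, and with no depth given a missing DHS cannot be told apart from too few reads.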
